A study of Mus musculus with 15 samples.

Results

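The insulin-like growth factor (IGF) system was followed in mouse inguinal fat through 8 genes, chosen by gene symbol: the ligand gene Igf1, its receptor gene Igf1r and the binding protein genes Igfbp2, Igfbp3, Igfbp4, Igfbp5, Igfbp6 and Igfbp7. All 8 are among the 24015 genes of the count table, and all 8 passed the filter on low counts, which left 15288 genes. PolyA RNA was sequenced from inguinal fat, a subcutaneous white depot that can gain heat-producing beige adipocytes, of C57BL/6 mice. Every mouse had spent 2 weeks at thermoneutrality, followed by 5 days of intraperitoneal CL or vehicle. The groups were 2-month-old mice on vehicle (Young_Ctrl, n = 4) or CL (Young_CL, n = 4), and 12-month-old mice on vehicle (Old_Ctrl, n = 3, replicates 1, 3 and 4) or CL (Old_CL, n = 4). The labels spell CL out as cardiolipin, whereas a β-adrenergic agonist often goes by CL too, so the agent is left here under the name CL. They do not say whether each library came from a separate animal, and the p-values therefore measure the spread between these libraries only.

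IGF1 is a secreted growth factor made by the liver under growth hormone and also locally, in fat by adipocytes, stromal cells and macrophages. It acts through the receptor tyrosine kinase IGF1R, which is abundant on adipocyte progenitors and drives growth and adipogenesis. IGF binding proteins (IGFBPs) hold IGFs in blood and tissue fluid, prolong their life and mostly keep them from the receptor until proteases cut the binding protein. Fibroblasts, endothelial and mural cells are known sources of several IGFBPs in connective tissue.

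Total counts ran from 6115542 to 51577001 per library. Adipocyte markers were abundant in all groups (a summed level of 17424 to 70824 CPM over 9 genes, CPM being counts scaled to a common library size), and 6 of 6 thermogenic adipocyte markers rose with CL at both ages. Skeletal muscle transcripts stood apart in 5 libraries: Young_CL 1, 2 and 3, Old_Ctrl 3 and Old_CL 3 had a summed level of 2208 to 6737 CPM over 8 markers, against 30.0 to 319 CPM in the other libraries. Old_CL 1, 2 and 4 were the closest libraries of any group, with a chi-square over its degrees of freedom of 2.69 to 4.99. Their counts differed by more than sampling noise, which does not show that they are separate animals. They were kept as labelled, and summed into 1 sample as an alternative. In Young_CL 4 the summed level of 10 progenitor and stromal markers was 2120 CPM (4266 to 5715 CPM in the other Young_CL libraries), and Pi16, a marker of early adventitial progenitors, stood at 14.5 CPM against 302, 305 and 349 CPM. The summed level of 7 macrophage markers was low in Young_CL 4 too, at 359 CPM against 992 to 1044 CPM.

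The 250 bases upstream of the annotated start are shown for the 4 binding protein genes called with CL at 12 months, of which Igfbp3 was higher and Igfbp5, Igfbp6 and Igfbp7 were lower. All 8 members were matched by symbol in the RefSeq promoter table (GRCm38.p6), a later build than the mm9 of the counts. Igfbp3 lies at chr11:7213924-7214173 and Igfbp5 at chr1:72874866-72875115, both on the minus strand, Igfbp6 at chr15:102143936-102144185 on the plus strand and Igfbp7 at chr5:77408046-77408295 on the minus strand. The sequences run 5′ to 3′ along the gene, and capitals mark matches on either strand to the TATA box TATAAA and its variant TATATA (which can overlap each other, but do not here), the CCAAT box, the GC box GGGCGG, the half-site TGACG of the cyclic AMP response element and the E-box CACGTG.
Igfbp3: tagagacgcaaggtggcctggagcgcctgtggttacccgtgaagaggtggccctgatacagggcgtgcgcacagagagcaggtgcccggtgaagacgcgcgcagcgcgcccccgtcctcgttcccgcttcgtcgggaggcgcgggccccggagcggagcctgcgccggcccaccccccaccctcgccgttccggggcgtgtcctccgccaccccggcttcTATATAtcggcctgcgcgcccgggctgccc
Igfbp5: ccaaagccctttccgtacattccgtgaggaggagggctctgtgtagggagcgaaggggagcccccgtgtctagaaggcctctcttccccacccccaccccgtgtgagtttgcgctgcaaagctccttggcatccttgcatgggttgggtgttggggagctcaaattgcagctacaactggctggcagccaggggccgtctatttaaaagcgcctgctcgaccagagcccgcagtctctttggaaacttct
Igfbp6: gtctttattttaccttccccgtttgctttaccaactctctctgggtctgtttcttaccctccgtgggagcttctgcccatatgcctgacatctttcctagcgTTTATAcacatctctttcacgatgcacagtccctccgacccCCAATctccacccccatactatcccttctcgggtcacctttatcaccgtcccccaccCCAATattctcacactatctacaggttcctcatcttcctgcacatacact
Igfbp7: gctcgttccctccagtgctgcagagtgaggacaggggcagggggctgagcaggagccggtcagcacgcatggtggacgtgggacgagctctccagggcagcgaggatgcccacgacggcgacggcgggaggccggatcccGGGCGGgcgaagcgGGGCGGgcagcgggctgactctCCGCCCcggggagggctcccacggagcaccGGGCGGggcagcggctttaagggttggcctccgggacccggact
Igfbp3 held TATATA 30 bases before its start, a sequence found in 5.25% of 32851 such windows. Igfbp7 held the GC box GGGCGG 4 times, and 32.7% of windows held it at least 1 time. In Igfbp6 there were 2 matches to CCAAT (33.8% of windows) and a match to TATAAA 148 bases before the start (12.4%). In Igfbp5 none of these letters was found. With none in Igfbp5, the 3 genes that were lower could share no motif of this set, and Igfbp6 and Igfbp7 held different ones. Base composition differed among the 3 genes, with a GC content of 58.8% for Igfbp5, 49.6% for Igfbp6 and 74.0% for Igfbp7 (73.2% for Igfbp3). TGACG (17.8% of windows) and the E-box (6.02%) were in none of the 4, which says only that these letters are not in this window.

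Levels of different genes were set side by side as CPM per kb of exon, with exon lengths from the GENCODE M21 basic set. The annotation behind the counts is not given in the sources used here, so this scale is approximate. In Young_Ctrl the highest was Igfbp7 at 323 ± 67.1 CPM per kb (SD, n = 4), apart from Igfbp4 at 142 ± 22.2. Igfbp6 followed at 123 ± 8.502, overlapping Igfbp4, and then Igfbp5 at 84.4 ± 6.38. Igfbp3 at 18.2 ± 2.70 and Igf1 at 17.7 ± 2.63 CPM per kb overlapped, as did Igfbp2 at 3.32 ± 0.629 and Igf1r at 2.92 ± 0.309.

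In Old_CL the order differed from that of Young_Ctrl at the top and the bottom. Igfbp4 (313 ± 7.33 CPM per kb, n = 4) was level with Igfbp7 (289.7 ± 21.2), their libraries overlapping. Igfbp3 (33.8 ± 4.57) stood apart above Igf1 (24.5 ± 1.26), and Igfbp2 (0.204 ± 0.127) stood apart below Igf1r (2.37 ± 0.387). The place of Igfbp2 was the same in Old_Ctrl, apart (0.327 ± 0.206) below Igf1r (2.99 ± 0.552). In Young_CL (n = 4) Igfbp2 was lowest too (1.48 ± 0.567) but overlapped Igf1r (2.12 ± 0.242). There Igf1 (20.4 ± 3.09) stood apart above Igfbp3 (12.4 ± 1.34). In Old_Ctrl, Igfbp6 (283 ± 14.1, n = 3) overlapped Igfbp4 (236 ± 61.5) in the place below Igfbp7 (448 ± 48.7).

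**Figure D1:**
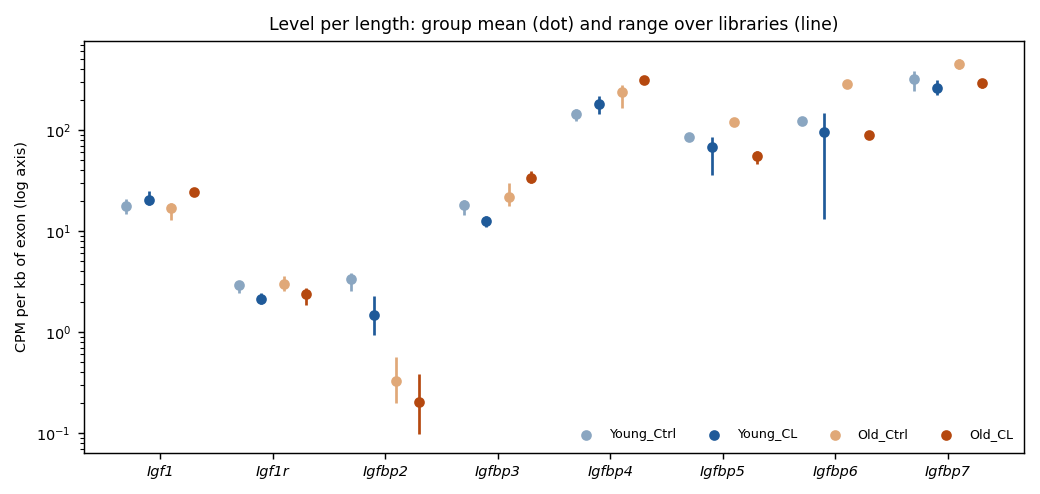
Level per length of the 8 members in the 4 groups, in CPM per kb of exon on a log axis; dots are group means and lines run from the lowest to the highest library (n = 4, and 3 for Old_Ctrl). Igfbp2 lies lowest in the aged groups, at 0.327 CPM per kb in Old_Ctrl and 0.204 in Old_CL, and Igfbp6 has its widest range in Young_CL.

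The first comparison asks how the members respond to CL in young mice. Of 8 members, 0 rose and 3 fell (Igf1r, Igfbp2 and Igfbp3), and 5 did not pass the test, an edgeR quasi-likelihood test with Benjamini-Hochberg adjustment over all genes, called under 0.05. At an unadjusted p under 0.05 the counts were 0 and 4, limma-voom called 0 and 3, and DESeq2 called 0 and 4, with Igfbp7 at its threshold (adjusted p = 0.050). Of all genes 43.9% were called, 21.7% higher and 22.1% lower, so the members' share is near the background. Upper-quartile scaling split the calls over all genes into 2839 higher and 4491 lower, against 3323 and 3383. The median log2 change was -0.34 over the members and -0.07 over all genes. Libraries of the groups did not overlap for the same 3 members, all lower, where 34.1% of all genes had no overlap (18.0% higher and 16.1% lower).

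The second comparison asks the same of aged mice. Of 8 members, 2 rose (Igf1 and Igfbp3), 3 fell (Igfbp5, Igfbp6 and Igfbp7) and 3 did not pass, where 45.2% of all genes were called, 23.1% higher and 22.2% lower. The median log2 change was -0.49 over the members and -0.01 over all genes. Libraries did not overlap for 5 members, 2 higher (Igf1 and Igfbp4) and 3 lower (Igfbp5, Igfbp6 and Igfbp7), where 52.8% of all genes had no overlap (27.9% higher and 25.0% lower). Igfbp4 was not called, and the libraries of Igfbp3 overlapped. At an unadjusted edgeR p under 0.05 the counts were 3 higher and 4 lower. Calls by limma-voom were 3 higher and 4 lower, and by DESeq2 2 higher and 4 lower. The count of called members was 3 when Old_CL 1, 2 and 4 were summed into 1 sample, since Igf1 (adjusted p = 0.054) and Igfbp6 (adjusted p = 0.075) then missed the edgeR threshold.

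**Figure D2:**
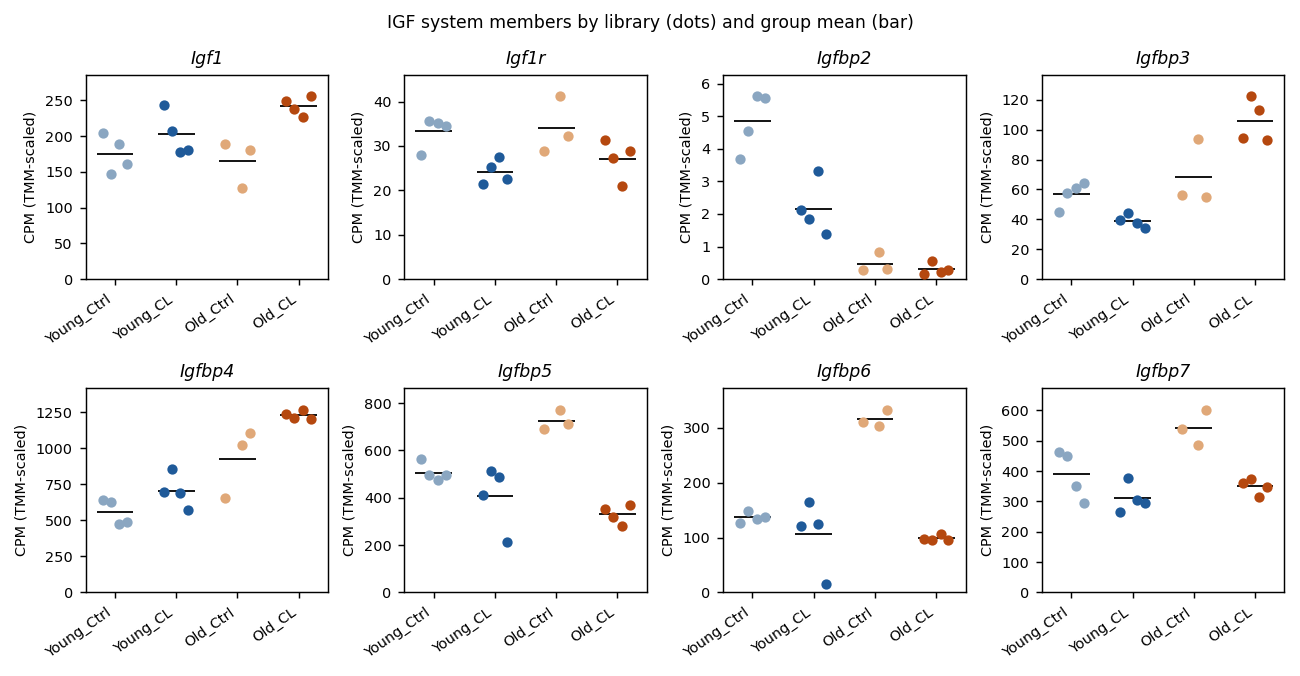
TMM-scaled CPM of the 8 members in each library (1 dot each, 15 in all), with bars for the group means; each panel has its own linear axis from 0. The 3 Old_Ctrl dots of Igfbp5, Igfbp6 and Igfbp7 lie above all dots of the other groups, and the lone low dot of Igfbp6 is Young_CL 4 at 14.7 CPM.

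Igf1, the ligand gene, stood at 204, 147, 189 and 161 CPM in Young_Ctrl 1 to 4 and at 244, 207, 177 and 181 CPM in Young_CL. In aged mice it was 189, 127 and 179.9 CPM under vehicle and 249.6, 238, 227 and 255 CPM after CL. The young groups overlapped, and every Old_CL library was above every Old_Ctrl library. The log2 change with CL was 0.56 (SE 0.15, edgeR adjusted p = 0.0087) at 12 months and 0.21 (SE 0.14, adjusted p = 0.24) at 2 months, and the difference between ages did not pass (0.35, SE 0.21, adjusted p = 0.30). Without Old_Ctrl 3, the muscle-rich library with the lowest value, the aged change was 0.40 (adjusted p = 0.052). Of the adipocyte markers 7 of 9 rose with CL at 12 months (summed level 28965 to 42637 CPM in Old_Ctrl and 57143 to 70824 CPM in Old_CL), while 5 of 7 macrophage markers fell (1367 to 2675 and 854 to 1306 CPM). Of 10 progenitor and stromal markers 8 fell and 0 rose there. At 2 months, where Igf1 was not called, 6 of 9 adipocyte markers rose with CL (17424 to 39145 and 43105 to 49575 CPM). There 0 of 7 macrophage markers were called, and of the stromal markers 1 rose and 1 fell. None of these markers was at 0 in all libraries, and their part in the Igf1 result was not tested. In bulk tissue, fewer cells of a type and less RNA per cell cannot be told apart, which holds for every result here.

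Igf1r, the receptor gene, was lower with CL in young mice. It stood at 28.0, 35.5, 35.1 and 34.6 CPM in Young_Ctrl and 21.4, 25.3, 27.5 and 22.6 CPM in Young_CL, without overlap. The change was -0.47 (SE 0.14, edgeR adjusted p = 0.012). In aged mice the values were 29.0, 41.1 and 32.3 CPM under vehicle and 31.2, 27.3, 20.9 and 28.9 CPM after CL, which overlap, with a log2 difference of -0.35 (SE 0.15, edgeR adjusted p = 0.062). That difference passed in 8 of 25 alternatives, RLE factors (adjusted p = 0.047), DESeq2 (0.042) and limma-voom (0.045) among them. Over all 25 alternatives the log2 difference ran from -0.46 to -0.077, so in some it nearly vanished. The highest vehicle value (41.1 CPM) and the lowest value after CL (20.9 CPM) in aged mice both came from muscle-rich libraries. The age difference of Igf1r did not pass in either treatment (0.04, SE 0.15, edgeR adjusted p = 0.85 under vehicle and 0.17, SE 0.14, adjusted p = 0.36 under CL).

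Igfbp2, which carries IGF in blood and binds integrins, was the member with the steepest age difference and the lowest counts. In Young_Ctrl it had 3.68, 4.56, 5.61 and 5.56 CPM, and in Old_Ctrl 0.288, 0.825 and 0.319 CPM, from 2, 46 and 9 counts. It was 8.78-fold lower in aged than in young mice under vehicle (log2 change -3.13, SE 0.40, edgeR adjusted p = 2.4e-04). Under CL it was 2.11, 1.84, 3.31 and 1.37 CPM in young and 0.143, 0.564, 0.206 and 0.278 CPM in aged mice, from 2 to 9 counts in the latter, a 7.07-fold difference (log2 change -2.82, SE 0.41, edgeR adjusted p = 1.2e-04). No aged library reached the lowest young library. Both age differences were called in all 25 alternatives, for a gene that passed the filter on low counts through the young groups, where it was high.

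With CL, Igfbp2 fell in young mice by 1.24 on the log2 scale (SE 0.33, edgeR adjusted p = 0.0069), and no Young_CL library reached a Young_Ctrl library. In aged mice the difference was -0.93 (SE 0.47, edgeR adjusted p = 0.12) at counts of 2 to 46, where the depth limits what can be seen. With only the aged groups fitted, Igfbp2 did not pass the filter on low counts, so this difference has 24 alternatives. Lymphocyte markers were lower in the comparisons that called Igfbp2, and also with CL in aged mice, where Igfbp2 did not pass. All 6 B cell and lymph node markers were lower with age under vehicle and lower with CL in young mice, with a summed level of 902 to 1296 CPM in Young_Ctrl, 556 to 760.1 in Young_CL, 309 to 640.4 in Old_Ctrl and 287 to 369 CPM in Old_CL. With CL in aged mice 4 of these 6 fell. The 6 T cell markers fell with CL at both ages, and 4 of 6 were lower with age under vehicle. Under CL all 6 markers of each list were lower with age. The sum of 5 Schwann cell markers was 226 to 271, 149 to 198, 104 to 136 and 104 to 117 CPM in the same order, but its genes did not move alike. With CL 1 rose and 2 fell in young mice and 1 rose in aged mice, and with age under vehicle 1 was lower and the median log2 change was -0.01. None of these markers was at 0 in all libraries, and their part in the Igfbp2 result was not tested.

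Igfbp3, which carries most IGF in blood in a complex with the acid-labile subunit, moved in opposite directions at the 2 ages. It stood at 44.9, 57.6, 61.2 and 64.0 CPM in Young_Ctrl and 39.5, 44.1, 37.8 and 34.0 CPM in Young_CL. In Old_Ctrl it stood at 56.2, 93.9 and 54.8 CPM and in Old_CL at 94.1, 122, 113 and 93.3 CPM. The young groups did not overlap, and the aged groups met only through Old_Ctrl 3, the library richest in muscle transcripts.

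The log2 change of Igfbp3 with CL was -0.55 in young mice (SE 0.17, edgeR adjusted p = 0.015) and 0.62 in aged mice (SE 0.18, edgeR adjusted p = 0.011). The difference between these effects was 1.18 (SE 0.24, edgeR adjusted p = 0.013), the only member of 8 called for this interaction, where 7.08% of all genes were called, 3.31% higher and 3.77% lower. It was 1.66 (adjusted p = 0.024) without the 5 muscle-rich libraries, which leaves Young_CL 4 as the sole young CL library. It missed the threshold with Old_CL 1, 2 and 4 summed (1.21, adjusted p = 0.056). The aged change was 0.51 without Old_Ctrl 1 and 0.48 without Old_Ctrl 4 (edgeR adjusted p = 0.057 in each fit). Under CL, Igfbp3 was 2.72-fold higher in aged than young mice (log2 change 1.44, SE 0.17, edgeR adjusted p = 1.8e-05, called in all 25 alternatives). Under vehicle the age difference was 0.27 (SE 0.18, edgeR adjusted p = 0.27), or -0.04 without Old_Ctrl 3.

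Mural cell markers moved in part like Igfbp3. Of 7 markers of pericytes and smooth muscle, 1 rose and 2 fell with CL in young mice, 4 rose with CL in aged mice, and 3 were called higher for the interaction. Their summed level was 213 to 420.1 CPM in Young_Ctrl, 297 to 486 in Young_CL, 425 to 446 in Old_Ctrl and 667 to 705 CPM in Old_CL. Of 7 endothelial markers 1 rose at each age. None of the mural or endothelial markers was at 0 in all libraries, and their part in the Igfbp3 result was not tested.

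Igfbp4, which blocks IGF action until the protease PAPP-A cuts it, was higher in aged than in young fat. It stood at 638, 628, 477 and 489 CPM in Young_Ctrl and 652, 1024 and 1103 CPM in Old_Ctrl, without overlap. With CL it stood at 695, 855, 692 and 569 CPM in young and 1238, 1211, 1266 and 1203 CPM in aged mice, again without overlap. Igfbp4 rose with age under vehicle (log2 change 0.73, SE 0.18, edgeR adjusted p = 0.0094) and under CL (0.81, SE 0.17, adjusted p = 0.0017, called in all 25 alternatives). The vehicle call was lost without Old_Ctrl 4 (0.59, edgeR adjusted p = 0.063), with only the 2 groups fitted (0.73, adjusted p = 0.052) and without the 5 muscle-rich libraries (0.61, adjusted p = 0.056). The differences with CL were 0.33 (SE 0.17, edgeR adjusted p = 0.12) in young and 0.41 (SE 0.18, adjusted p = 0.081) in aged mice, and the latter groups did not overlap.

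Igfbp5, Igfbp6 and Igfbp7 were the members that fell with CL in aged mice. Igfbp5 binds extracellular matrix as well as IGFs, Igfbp6 prefers IGF2 as its ligand, and Igfbp7 is a distant relative with low IGF affinity that is deposited along vessels. All 3 were highest in Old_Ctrl.

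Igfbp5 stood at 689, 772 and 711 CPM in Old_Ctrl and at 351, 320.2, 279 and 368 CPM in Old_CL. It fell 2.20-fold (log2 change -1.14, SE 0.21, edgeR adjusted p = 6.6e-04), without overlap and in all 25 alternatives. In young mice it stood at 562, 496, 473 and 496 CPM under vehicle and at 414, 512, 489.7 and 214 CPM after CL. The young groups overlapped, the lowest value was that of Young_CL 4, and the difference did not pass (-0.32, SE 0.20, edgeR adjusted p = 0.21). Without the 5 muscle-rich libraries, with Young_CL 4 as the sole young CL library, it was -1.25 (adjusted p = 0.0010). Under vehicle the 2 ages did not overlap, at a log2 difference of 0.52 (SE 0.21, edgeR adjusted p = 0.082).

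Igfbp6 stood at 309.7, 303 and 333 CPM in Old_Ctrl and at 98.1, 94.6, 107 and 96.2 CPM in Old_CL, which put the groups far apart. It fell 3.18-fold with CL (log2 change -1.67, SE 0.47, edgeR adjusted p = 0.012). In young mice it stood at 127, 149, 133 and 138 CPM under vehicle and at 121, 165, 125 and 14.7 CPM after CL. Replicates 1 to 3 of Young_CL covered the vehicle values and replicate 4 lay far below them. The young difference was -0.36 (SE 0.44, edgeR adjusted p = 0.53), and 0.0042 (adjusted p = 0.98) without Young_CL 4. Without the 5 muscle-rich libraries, which leaves Young_CL 4 alone in its group, it was -3.22 (edgeR adjusted p = 4.3e-06).

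All groups share an estimate of the spread, so Young_CL 4 entered the tests of the other Igfbp6 values too. Between ages under vehicle the libraries did not overlap, and the log2 difference was 1.20 (SE 0.47, edgeR adjusted p = 0.072). It was 1.20 with an adjusted p = 1.2e-05 without Young_CL 4, and 1.20 with an adjusted p = 0.0021 when only those 2 groups were fitted. The aged CL effect minus the young one was -1.31 (SE 0.65, edgeR adjusted p = 0.21) for Igfbp6 and -0.82 (SE 0.29, adjusted p = 0.095) for Igfbp5. Without Young_CL 4 these were -1.67 (adjusted p = 3.2e-05) and -1.03 (adjusted p = 0.0020). Without the 5 muscle-rich libraries, where Young_CL 4 alone stands for young CL, they were 1.49 (adjusted p = 0.0082) and 0.24 (adjusted p = 0.70). Whether CL acted differently on Igfbp6 at the 2 ages therefore rested on Young_CL 4.

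Igfbp7 stood at 538, 485 and 602 CPM in Old_Ctrl and at 362, 376, 316 and 347 CPM in Old_CL. It fell by 0.63 on the log2 scale (SE 0.16, edgeR adjusted p = 0.0050), without overlap and in all 25 alternatives. In young mice it stood at 464, 451, 350.3 and 295 CPM under vehicle and at 266, 378, 305 and 296 CPM after CL, which overlap (log2 difference -0.33, SE 0.15, edgeR adjusted p = 0.088). With age under vehicle it rose by 0.47 (SE 0.16, edgeR adjusted p = 0.038), but 10 of 25 alternatives lost that call, with adjusted p up to 0.15 without Old_Ctrl 4.

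**Figure D3:**
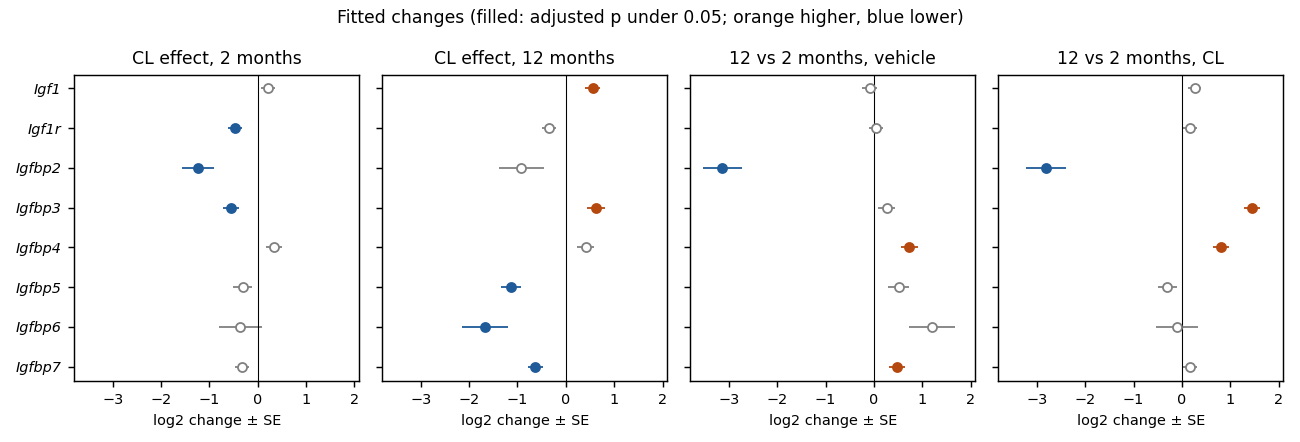
Fitted log2 change of each member (dot) with its SE (line) in 4 comparisons, on a shared axis; filled dots have an edgeR adjusted p under 0.05. Igfbp3 is filled on opposite sides of 0 for CL at 2 months (-0.55) and at 12 months (0.62), and Igfbp2 lies far left in both age panels (-3.13 and -2.82).

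Progenitor and stromal markers and macrophage markers moved with these 3 genes by group, though not in every library. With CL in aged mice 0 of 10 rose and 8 of 10 fell, from a summed level of 4974 to 11591 CPM in Old_Ctrl to 2951 to 3273 CPM in Old_CL. In young mice 1 rose and 1 fell, with 3910 to 5693 CPM in Young_Ctrl and 2120 to 5715 CPM in Young_CL. With age under vehicle 6 of 10 were called higher and 0 lower. Of the 7 macrophage markers 5 fell with CL in aged mice, 0 were called with CL in young mice, and 6 were higher with age under vehicle. No marker of either list was at 0 in all libraries. Vessel markers did not fall with CL in aged mice. Of 7 mural markers 4 rose and 0 fell, from a sum of 425 to 446 CPM to 667 to 705 CPM. Of 7 endothelial markers 1 rose and 0 fell, from 567 to 671 CPM to 719 to 831 CPM. With age under vehicle 3 mural and 2 endothelial markers were higher and 0 lower. Dpp4, a progenitor surface marker, stood at 36.9 CPM in Young_CL 4 and at 86.5 to 91.2 CPM in the other Young_CL libraries, as Pi16 and Igfbp6 were low there. Igfbp5 was low in Young_CL 4 too (214 CPM), whereas Igfbp7 was not, at 296 CPM against 266 to 378 CPM. Old_Ctrl 3 had the lowest stromal sum of its group (4974 CPM), with Col1a1 at 534 CPM against 2953 and 1754 CPM, while its Pi16 was the highest of the group (514 CPM against 271 and 425 CPM). Its Igfbp5 was the highest of the group too (772 CPM against 689 and 711 CPM). The part of stromal, macrophage, mural and endothelial content in these results was not tested.

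**Figure D4:**
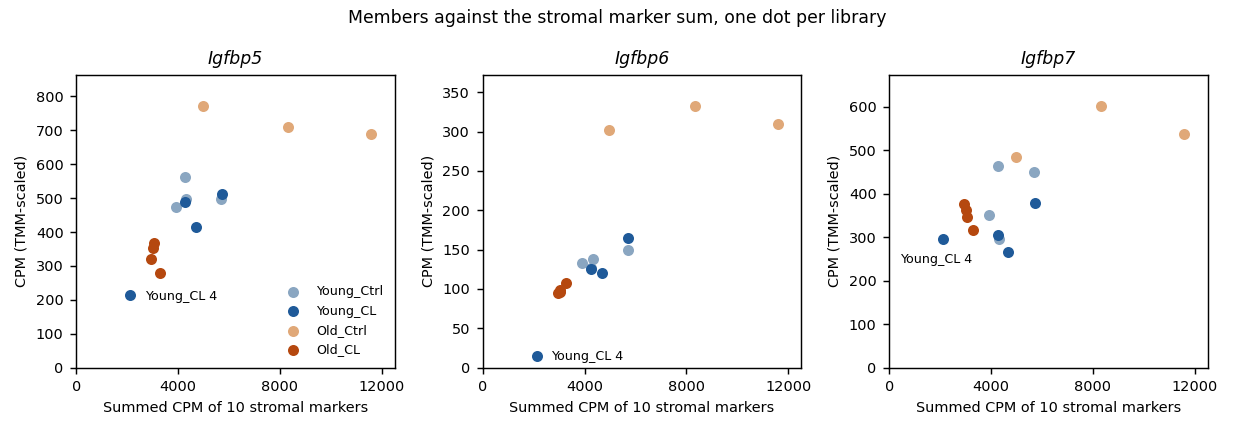
CPM of Igfbp5, Igfbp6 and Igfbp7 against the summed CPM of 10 progenitor and stromal markers, with 1 dot per library. Old_CL dots lie at 2951 to 3273 CPM of stromal markers and Old_Ctrl dots at 4974 to 11591 CPM, and Young_CL 4 is lowest on the stromal axis.

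Between the ages, 2 members were called higher (Igfbp4 and Igfbp7) and 1 lower (Igfbp2) under vehicle, where 27.2% of all genes were called, 15.1% higher and 12.2% lower. Libraries did not overlap for 5 members, 4 higher and 1 lower (27.1% of all genes, 14.0% higher and 13.1% lower). The median log2 change was 0.37 over the members and 0.03 over all genes. The called count was 5 without Young_CL 4, when Igfbp5 and Igfbp6 passed, and 1 without Old_Ctrl 4.

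Under CL 2 members were higher in aged mice (Igfbp3 and Igfbp4) and 1 lower (Igfbp2), where 40.0% of all genes were called, 20.5% higher and 19.4% lower. Libraries did not overlap for those 3 (44.9% of all genes, 23.5% higher and 21.4% lower). The count was 5 without Young_CL 4, with Igfbp5 (-0.52, edgeR adjusted p = 0.0045) and Igfbp6 (-0.47, adjusted p = 0.0043) then lower in aged mice. It was also 5 without the 5 muscle-rich libraries, but there Igfbp5 (0.66, adjusted p = 0.042) and Igfbp6 (2.68, adjusted p = 7.8e-05) were higher. The age comparisons share their groups with the CL comparisons, so the high Old_Ctrl values of Igfbp5, Igfbp6 and Igfbp7 enter both.

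The other genes of the IGF and growth hormone axis were taken as a list of 36, of which 32 could be tested. Igfbp1 had 0 counts in every library. A floor of 3 counts would be 0.0582 CPM in Old_Ctrl 3 and 0.491 CPM in Young_CL 3, over total counts and without TMM scaling. With CL in young mice 3 rose and 11 fell (43.9% of all genes were called), and in aged mice 7 rose and 9 fell (45.2%). With age, 8 were higher and 4 lower under vehicle (27.2%), and 10 higher and 3 lower under CL (40.0%). The interaction called 1 higher and 1 lower (7.08%). The medians of their log2 change were -0.31, 0.00, 0.10, 0.12 and 0.11 in that order, against -0.07, -0.01, 0.03, -0.01 and -0.02 over all genes.

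Igf2, the imprinted fetal growth factor gene, rose with age. It stood at 5.39, 4.38, 3.68 and 2.89 CPM in Young_Ctrl and 7.64, 10.2 and 8.49 CPM in Old_Ctrl, apart, with a log2 change of 1.15 (SE 0.24, edgeR adjusted p = 0.0039). After CL it stood at 2.95, 4.61, 2.32 and 2.02 CPM in young and 12.9, 15.6, 14.3 and 12.1 CPM in aged mice (log2 change 2.15, SE 0.23, edgeR adjusted p = 7.9e-06). An antisense gene, Igf2os, is in the table, and without a stated strand setting reads of the pair cannot be told apart. Igf2r, the clearance receptor of IGF2, passed in none of the 5 comparisons with the main test. Under CL its libraries did not overlap between ages (0.32, SE 0.13, edgeR adjusted p = 0.057), and 5 of 25 alternatives called it. Under vehicle (0.29, SE 0.14, edgeR adjusted p = 0.12) 2 of 25 alternatives called it. At 2 months CL left Igf2 at -0.37 (SE 0.24, edgeR adjusted p = 0.23), and at 12 months it rose by 0.63 (SE 0.23, adjusted p = 0.035), a call lost in 8 of 25 alternatives, among them leaving out Old_Ctrl 1 or 4 or Old_CL 1, 2 or 3 (adjusted p = 0.051 to 0.11).

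Igfals encodes the acid-labile subunit, the partner of IGFBP3 in blood. In aged mice it stood at 25.7, 12.8 and 20.7 CPM under vehicle and at 89.4, 78.0, 72.3 and 80.1 CPM after CL, and it rose by 2.06 on the log2 scale (SE 0.35, edgeR adjusted p = 4.1e-04). The young difference with CL (0.55, SE 0.30, edgeR adjusted p = 0.16) and the interaction (1.51, SE 0.45, adjusted p = 0.058) did not pass. With age Igfals was lower under vehicle (-1.09, SE 0.34, edgeR adjusted p = 0.03) and did not pass under CL (0.42, SE 0.30, adjusted p = 0.28). Stc2, whose product blocks PAPP-A, differed in its CL response between ages. It stood at 20.4, 16.8, 15.01 and 13.0 CPM in Young_Ctrl and 9.06, 8.21, 6.46 and 8.24 CPM in Young_CL (log2 change -0.99, SE 0.14, edgeR adjusted p = 3.8e-05). In aged mice it stood at 19.7, 19.1 and 18.5 CPM under vehicle and 24.3, 27.8, 24.9 and 22.4 CPM after CL (0.38, SE 0.14, edgeR adjusted p = 0.036). This aged call was lost in 10 of 25 alternatives, among them leaving out any Old_Ctrl library or Old_CL 1, 2 or 3 (adjusted p = 0.057 to 0.099). The difference between the effects was 1.38 (SE 0.19, edgeR adjusted p = 0.0018), and without the 5 muscle-rich libraries it missed the threshold (1.36, adjusted p = 0.052). Pappa itself stood at 0.288 to 1.98 CPM in all libraries and passed in no comparison.

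Receptor and feedback genes of the axis also moved. Insr, the insulin receptor gene, rose with CL in young (log2 change 0.47, SE 0.14, edgeR adjusted p = 0.013) and aged mice (0.62, SE 0.15, adjusted p = 0.0037). The sign was opposite to that of Igf1r, whose aged difference did not pass. Socs2, a feedback inhibitor of growth hormone signalling, fell at both ages (-0.79, SE 0.21, edgeR adjusted p = 0.0062 and -0.99, SE 0.22, adjusted p = 0.0023). Socs1 and Socs3, inhibitors of cytokine signalling, fell as well, by 0.74 and 0.76 in young and by 1.47 and 1.05 in aged mice on the log2 scale. Without the 5 muscle-rich libraries the young calls of Socs2 (-0.77, edgeR adjusted p = 0.20) and Socs1 (-0.75, adjusted p = 0.14) were lost. Ghr, the growth hormone receptor gene, was higher with age under vehicle (0.74, SE 0.19, edgeR adjusted p = 0.010) and CL (0.81, SE 0.18, adjusted p = 0.0020), but neither call held throughout. The vehicle call was lost without Old_Ctrl 4 (0.65, edgeR adjusted p = 0.057) and with only the 2 groups fitted (0.74, adjusted p = 0.071), and the CL call without the 5 muscle-rich libraries (0.78, adjusted p = 0.16). Its differences with CL were 0.39 (adjusted p = 0.081) and 0.47 (adjusted p = 0.056), and in young mice it passed without Young_Ctrl 1 (0.66, adjusted p = 1.2e-04).

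Htra3, a secreted serine protease gene, was higher with age under vehicle (log2 change 1.21, SE 0.22, edgeR adjusted p = 0.0020) and under CL (1.98, SE 0.21, adjusted p = 9.0e-06). Htra1 was higher with age in both (0.80 and 1.0). With CL, Htra3 fell in young mice (-0.60, SE 0.21, edgeR adjusted p = 0.028) and did not pass in aged mice (0.17, SE 0.22, adjusted p = 0.56). Mmp3, the stromelysin gene, was higher with age under vehicle (1.74, SE 0.28, edgeR adjusted p = 0.0013) and did not pass under CL (-0.05, SE 0.27, adjusted p = 0.90). It fell with CL in aged mice from 123 ± 39.1 to 32.2 ± 2.66 CPM (SD, n = 3 and 4, log2 change -1.92, SE 0.28, edgeR adjusted p = 1.5e-04). Its interaction was -1.79 (SE 0.39, edgeR adjusted p = 0.017) and missed the threshold in 3 alternatives. It was -1.56 without Old_Ctrl 4 (adjusted p = 0.055), -1.75 with Old_CL 1, 2 and 4 summed (adjusted p = 0.10) and -0.94 without the 5 muscle-rich libraries (adjusted p = 0.15).

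**Figure D5:**
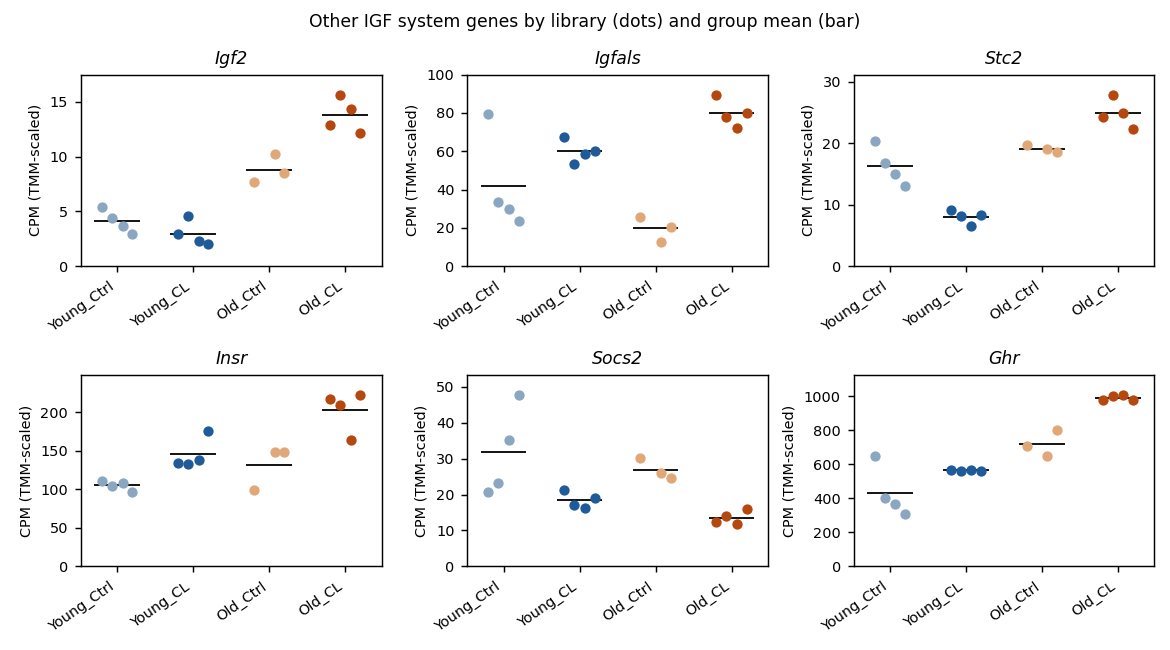
TMM-scaled CPM of Igf2, Igfals, Stc2, Insr, Socs2 and Ghr in each library (1 dot each), with bars for the group means and linear axes from 0. Stc2 lies lowest in Young_CL (6.46 to 9.06 CPM) and highest in Old_CL (22.4 to 27.8 CPM).

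As a description, the members' patterns over the 15 libraries were set against 10393 other genes (10394 for Igfbp2) by Pearson's r of log2 CPM, over points that share group, library and depth. Igfbp6 was most like Gpr133 (r = 0.99), Scara5 (0.98) and Ecm1 (0.98), and Igfbp5 like Aif1l (0.97), Ackr3 (0.96) and Ddah2 (0.96). Igfbp3 was closest to Vnn1 (0.95), Synpo2 (0.94) and the imprinted gene Peg3 (0.92). Igfbp4 was closest to Map1lc3a (0.97), Pink1 (0.97) and Aptx (0.96), and Igfbp7 to Nynrin (0.94), Eva1b (0.94) and Tm7sf3 (0.89). Igfbp2 was closest to Pip4k2b (0.94), Igf1r to Snx29 (0.90) and Igf1 to Asb7 (0.89). Among the members, Igfbp5 and Igfbp6 were most alike (r = 0.89), and Igfbp2 and Igfbp4 ran most opposite (r = -0.83).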

How the data were processed

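Per the submitters' processing notes, the authors aligned reads to mm9 with STAR and summed them per gene with featureCounts of Subread; versions, annotation and strand setting are not given in the sources used here. The values are the gene counts as deposited, 1 table of 24015 genes and 15 libraries. Genes were kept with filterByExpr by group and scaled by TMM, and levels are TMM-scaled CPM; log2 CPM for pattern likeness used a prior count of 2. The main test was edgeR's quasi-likelihood F test (edgeR 4.0.16, R 4.3.3), fitted robustly to all 15 libraries with a mean for each group, with Benjamini-Hochberg adjustment over 15288 genes and calls under 0.05. An SE was taken as the size of the log2 change divided by the root of F. The procedure was tested on simulated data. Alternatives were RLE and upper-quartile factors, 2 other filters, DESeq2 1.42.0, limma 3.58.1 (voom), only the groups compared, the replicate number as a block, Old_CL 1, 2 and 4 summed, no muscle-rich libraries, and each library left out.

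The members, lists and alternatives were chosen with earlier results of these data known. Named genes are the 8 members, 7 fixed genes of the wider list (Igf2, Igf2r, Ghr, Insr, Pappa, Stc2 and Socs2), up to 4 further called ones of smallest p per comparison, and the 3 best correlated genes with a mean log2 CPM of at least 3 for each member. For the marker Adgre1 the older symbol Emr1 was used. The precision of a value is limited by depth: over total counts, without TMM scaling, 3 counts are 0.491 CPM in the shallowest library (Young_CL 3) and 0.0582 CPM in the deepest (Old_Ctrl 3). Summed markers of epithelium and mesothelium were at most 11.7 and 4.14 CPM (3 and 1 markers tested). Of 4 erythrocyte markers, 0 were called with CL in young and 3 higher in aged mice, and with age 3 were higher under vehicle and 4 under CL.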

Additional observations from a re-analysis of the deposited data

Results flagged for a closer look

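Igfbp3 differed in its CL effect between ages by the interaction term, 1.18 on the log2 scale (12 minus 2 months, SE 0.24, edgeR adjusted p = 0.013). It was lower in 4 of 4 Young_CL libraries than in any Young_Ctrl library, and 3 of the 4 Old_CL libraries were above every Old_Ctrl library. In 24 tests of a group of 4 for an outlying library, Igf1r was marked once, in Young_Ctrl 1 at 28.0 CPM, where the other 3 libraries lie close together at 34.6 to 35.5 CPM. Chance marks about 1 in 20 such groups.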

How the results depend on the processing

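Of 40 values (8 members in 5 comparisons), 17 kept their direction and their side of the threshold in all alternatives run. Over 991 recomputed values of the members, 925 kept both, 19 lost the call, 28 gained it and 19 changed sign. The cause of these changes was not tested. Nothing in the labels says that replicate numbers mark shared animals or days, and 6 of 21 same-number pairs of libraries had deviations correlated above 0.1 (range -0.35 to 0.34). With the replicate block the interaction called 641 genes against 1083, the age difference of Igfbp6 under CL changed sign (0.0276), and the aged CL calls of Igf2 (0.51, edgeR adjusted p = 0.057) and Stc2 (0.34, adjusted p = 0.053) were lost.

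Without the 5 muscle-rich libraries, which leaves 1 Young_CL and 2 Old_Ctrl libraries and assumes that the lone one varies like the others, CL in young mice called 2974 genes against 6706 (5 members), age under CL 1869 against 6108 (5 members), and the interaction 203 (2 members). There the sign changed for CL in young mice in Igf2r (0.13) and Pappa (0.22), for CL in aged mice in Igfbp2 (0.10), for age under vehicle in Igf1 (0.0358), Igf1r (-0.16) and Igfbp3 (-0.0878), for age under CL in Igfbp5 (0.66) and Igfbp6 (2.68), and for the interaction in Igfbp5 (0.24), Igfbp6 (1.49) and Igf2r (-0.34). With Old_CL 1, 2 and 4 summed, CL in aged mice called 3 members, age under CL 3818 genes, and the interaction 139 genes and 0 members (1 higher and 1 lower at an unadjusted p under 0.05 in edgeR, and 2 called by DESeq2 with all libraries). With only the groups compared, age under vehicle called 1877 genes against 4162; for the interaction this was not run, since it needs all 4 groups. DESeq2 called 1826 genes and 2 members for the interaction, and limma-voom turned Igfbp6 with age under CL to 0.41. Upper-quartile factors split the calls for CL in young mice into 2839 higher and 4491 lower (3323 and 3383 with TMM).

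Leaving out each library in turn gave 5418 to 7609 genes and 3 to 4 members for CL in young mice, 5599 to 7401 and 4 to 6 for CL in aged mice, and 4849 to 6724 and 3 to 5 for age under CL. Age under vehicle gave 1739 (without Old_Ctrl 4) to 5851 genes (without Young_Ctrl 1) and 1 to 5 members, and the interaction 431 (without Old_Ctrl 4) to 2070 genes (without Young_CL 4) and 1 to 3 members. The log2 change spanned 0 for CL in Igfbp6 in young mice (-0.66 to 0.0042) and Igf2r in aged mice (-0.21 to 0.11). It did so for age under vehicle in Igf1 (-0.19 to 0.0739), Igf1r (-0.12 to 0.14), Igfbp3 (-0.0417 to 0.41) and Socs2 (-0.41 to 0.0077), and for age under CL in Igfbp6 (-0.47 to 0.19) and Pappa (-0.37 to 0.16). For the interaction it did so in Igfbp2 (-0.12 to 1.13), Igfbp4 (-0.12 to 0.22), Igf2r (-0.16 to 0.16), Ghr (-0.19 to 0.21) and Insr (-0.0118 to 0.26). Depth limits Igfbp2 in aged mice, at 2 to 46 counts.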
